A study of Mus musculus with 8 samples.

Results

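Endothelial cells line the blood vessels of the spinal cord, and mural cells (pericytes and smooth muscle cells) wrap around them. SOX9 CUT&Tag coverage was measured at 36 genes that mark these cells, 24 endothelial and 12 mural. The genes were taken by name from a fixed list that used no measured value, though it was chosen with earlier results of these data known. All 36 were found among 21829 protein-coding genes of the mouse annotation. For each gene the coverage was averaged over the 1 kb to each side of its transcription start (the start window) and over the gene with 5 kb to each side (the gene window). Every value below is this mean divided by the mean coverage of the same library over the genome, so that 1 is the library mean.

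In CUT&Tag an antibody guides a transposase to the DNA near its target protein, and the DNA pieces it cuts out are sequenced. Nuclei came from a 5 mm length of spinal cord of wild-type young adult C57BL/6 mice of both sexes, with the meninges cleared and nuclei sorted on a DNA dye. The mice were uninjured or were killed 1 d after a thoracic contusion (1 d.p.i.). Injury came with anaesthesia, opening of the vertebrae, analgesics and antibiotics, whose part cannot be told apart from that of the contusion. For each condition SOX9 was profiled in 1 sample labelled M and 1 labelled F, read here as male and female. In each sample 20% of the nuclei were kept from the SOX9 antibody, which gave 4 secondary-only control libraries. The labels name no selection of a cell type. For these samples the paper refers back to its sorting methods, which also stain for a neuronal or an oligodendroglial protein. It does not say which of the stained nuclei were kept here. SOX9 in more nuclei and more SOX9 per nucleus cannot be told apart, and coverage at a vascular gene is not that of vascular nuclei.

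SOX9 belongs to the SOX family of transcription factors and is known in the adult spinal cord as a factor of astrocytes and ependymal cells. Endothelial identity is set mainly by ETS factors (Erg, Fli1, Ets1) and by SOX factors of another subgroup (Sox17, Sox18), while smooth muscle genes are driven by serum response factor (SRF) and its partners. Endothelial cells of the central nervous system form the blood-brain barrier through tight junctions, transporters and low vesicle traffic, and pericytes support it.

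The libraries differed in depth, which bounds what single genes can show. The SOX9 libraries held 1891276 fragments (uninjured M), 7216730 (uninjured F), 2529356 (1 d.p.i. M) and 2385009 (1 d.p.i. F), a range of 3.82-fold. A start window at the library mean held 1.39 fragments in uninjured M, 5.30 in uninjured F, 1.86 in 1 d.p.i. M and 1.75 in 1 d.p.i. F. A window without a fragment, which allows up to 3 fragments, therefore allows coverage of up to 2.16, 0.566, 1.62 and 1.71 in these libraries, for counting error only. The controls held 22752 and 46846 fragments (uninjured M and F) and 52950 and 10906 (1 d.p.i. M and F). Of their lone fragments, 82.3% to 93.5% coincided at both ends with a SOX9 fragment (0.226% or less when positions were shifted), so the controls were no independent background.

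Start windows of the vascular genes had low coverage. The median over the 36 genes was 1.59 in uninjured M, 1.43 in uninjured F, 1.39 in 1 d.p.i. M and 1.50 in 1 d.p.i. F. Over all coding genes the median was 2.85, 4.80, 3.72 and 3.35 in the same libraries, above the vascular median in each of the 4. Coverage of at least 3 in all 4 SOX9 libraries was seen at 2 of the 36 genes, Mfsd2a and Tagln, against 40.6% of coding genes. The mean over the 4 libraries was under that of the median coding gene (3.85) at 33 genes, and none was above percentile 75 of coding genes. Without uninjured M, the shallowest library, the number at 3 or more was 4.

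**Figure D1:**
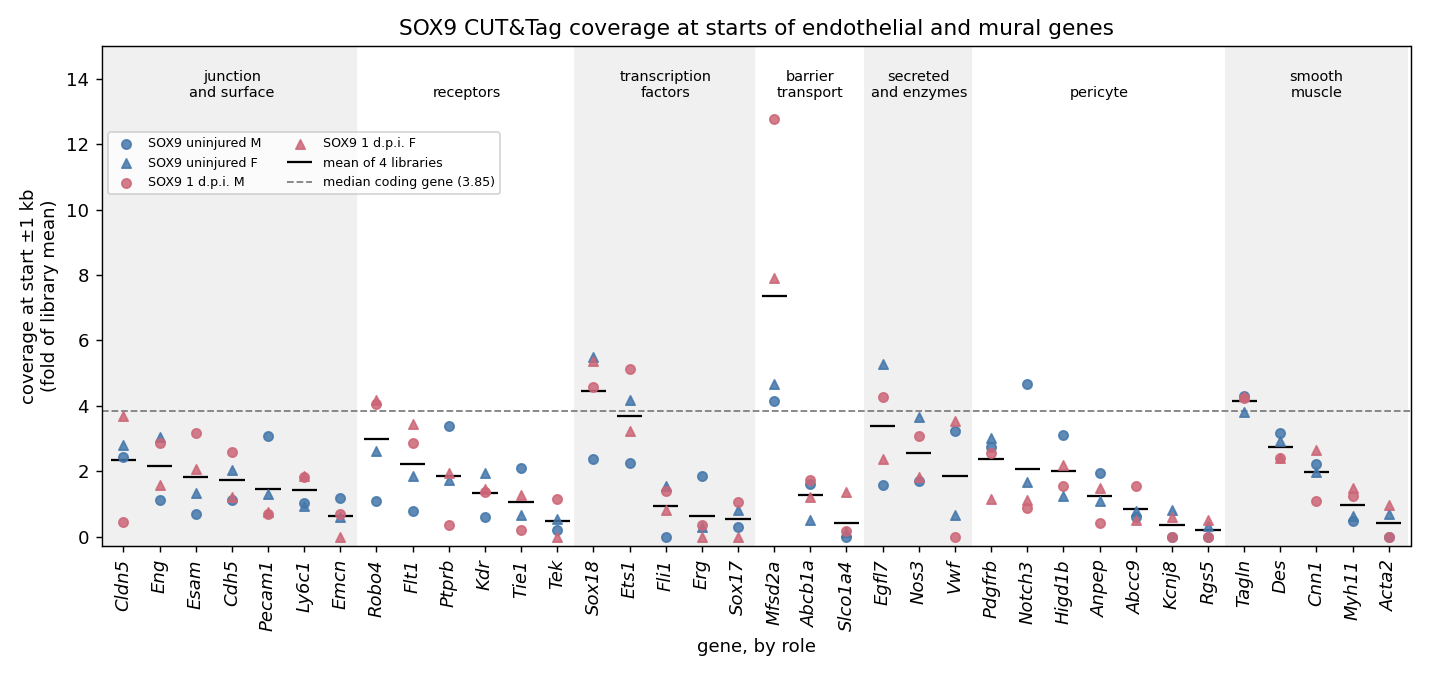
Coverage of each SOX9 library in the start window (vertical axis, fold of the library mean) at each of the 36 genes (horizontal axis, grouped by role); circles are M, triangles F, blue uninjured, red 1 d.p.i., and bars the mean of the 4 libraries. The dashed line is the median coding gene (3.85), and the bars of only Mfsd2a, Sox18 and Tagln lie above it.

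Summed over the 36 start windows (72.0 kb), the SOX9 libraries held 89, 363, 147 and 133 fragments (uninjured M and F, 1 d.p.i. M and F). Their summed coverage was 1.70 (95% exact Poisson interval 1.36 to 2.09), 1.88 (1.69 to 2.08), 2.02 (1.71 to 2.38) and 1.96 (1.64 to 2.32). The intervals cover counting error only, and by them the vascular genes were above the library mean in every SOX9 library. All coding starts together gave 4.81, 8.81, 6.71 and 5.61, and in the controls 7.07, 7.28, 6.43 and 7.01, so the control lay above the SOX9 library in uninjured M and 1 d.p.i. F and below it in the other 2. At the 36 genes the controls held 0, 3, 4 and 2 fragments, which gave 3.49 (0.719 to 10.2) for uninjured F, 2.58 (0.703 to 6.61) for 1 d.p.i. M and 7.65 (0.926 to 27.6) for 1 d.p.i. F, while the 0 of uninjured M allowed up to 4.99. With intervals this wide, a difference between SOX9 and control libraries was not detectable at these genes.

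Among genes of endothelial junctions and surface, all 7 had a mean below the median coding gene, and their median was 1.73. Cldn5, the main tight junction protein of the blood-brain barrier, had 2.42, 2.79, 0.446 and 3.67 in uninjured M, uninjured F, 1 d.p.i. M and 1 d.p.i. F (the order used for each gene below). The 1 d.p.i. libraries lay on either side of the uninjured ones, and the low value came from 1 fragment. Pecam1, an adhesion molecule of endothelial contacts, had 3.08, 1.29, 0.682 and 0.748, with both 1 d.p.i. libraries below both uninjured ones. Esam, another adhesion molecule, had 0.689, 1.33, 3.16 and 2.05, the opposite order. Cdh5, the cadherin of endothelial adherens junctions, overlapped between conditions, with 1.57 ± 0.643 uninjured and 1.90 ± 0.961 at 1 d.p.i. (mean ± SD, n = 2 each). Ly6c1 had low values of 1.03, 0.944, 1.82 and 1.86, from 1 to 7 fragments per library, with both 1 d.p.i. libraries above both uninjured ones. It belongs to a family of similar neighbouring genes, so its coverage may include fragments of its copies.

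The receptors reached a median of 1.60, and none of the 6 had coverage of 3 in all libraries. Robo4, a guidance receptor of endothelium, had the highest mean of the 6, with 1.1, 2.62, 4.04 and 4.17. Both 1 d.p.i. libraries were above both uninjured ones there. Flt1, a receptor and decoy of vascular endothelial growth factor, had 0.785, 1.86, 2.85 and 3.43, also without overlap. Its signalling partner Kdr had 0.594, 1.94, 1.38 and 1.46, which overlapped. Tek, the angiopoietin receptor, was at the low end with 0.194, 0.546, 1.16 and 0, from 8 fragments in the 4 libraries together.

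The transcription factors of endothelial identity ranged from Sox18 to Sox17. Sox18 had 2.39, 5.48, 4.58 and 5.37 and Ets1 had 2.24, 4.16, 5.13 and 3.24. The lowest value of both was that of uninjured M, the shallowest library, and the conditions overlapped. Fli1 had 0, 1.53, 1.40 and 0.818, Erg had 1.85, 0.281, 0.345 and 0, and Sox17 had 0.307, 0.799, 1.06 and 0. The mean of each over the 4 libraries was below 1, and a library without a fragment was seen at each.

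Barrier transport held the highest gene of the list. Mfsd2a, the lipid transporter that keeps vesicle traffic low at the blood-brain barrier, had 4.14, 4.65, 12.8 and 7.92 from 5, 24, 21 and 13 fragments. It lay at percentile 69.4 of coding genes, and both 1 d.p.i. libraries were above both uninjured ones. The efflux pump gene Abcb1a had 1.61, 0.499, 1.74 and 1.22, and the organic anion transporter gene Slco1a4 had 0, 0.150, 0.177 and 1.36. Both have close paralogues next to them in the genome. The secreted factor Egfl7 had 1.58, 5.28, 4.28 and 2.38, and Nos3, the endothelial nitric oxide synthase, had 1.70, 3.67, 3.08 and 1.81. The clotting factor gene Vwf ranged from 0 in 1 d.p.i. M to 3.53 in 1 d.p.i. F.

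Among mural genes, Tagln reached the level of the median coding gene and several were near 0. Tagln, an actin-binding protein of smooth muscle, had 4.29, 3.81, 4.24 and 4.31, which differed little between libraries. Des, the muscle intermediate filament, had 3.18, 2.93, 2.40 and 2.41, and Pdgfrb, the receptor that recruits pericytes, had 2.73, 3.01, 2.57 and 1.16. In both, the 1 d.p.i. libraries were below the uninjured ones. Notch3, which maintains mural cells, had 4.65, 1.66, 0.871 and 1.13. At the other end, Acta2 (smooth muscle actin), Kcnj8 (a potassium channel subunit of pericytes) and Rgs5 (a regulator of G protein signalling) had 0 in both M libraries. In the F libraries Acta2 had 0.693 and 0.963, Kcnj8 0.810 and 0.606, and Rgs5 0.330 and 0.515, all below the library mean.

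Coverage at coding starts followed CpG content, the ratio of CpG dinucleotides observed to those expected from base composition. In the lowest tertile of coding genes by this ratio (up to 0.287) the median coverage was 0.604, in the middle tertile (up to 0.611) 4.76 and in the highest 8.46. Of the vascular genes, 14 fell in the lowest tertile, 18 in the middle and 4 in the highest, with medians of 1.80, 1.30 and 2.96. By these medians, vascular genes with few CpGs lay above other such genes, and those with more CpGs lay below theirs. Among the 500 coding genes nearest in CpG ratio, Ly6c1 (ratio 0.0649) was at percentile 93.6, Egfl7 (0.166) at 88.8, Robo4 (0.158) at 86.8 and Tagln (0.248) at 86.4. Kcnj8 (0.569) was at percentile 0.6, Fli1 (0.705) and Sox17 (0.550) at 1.2, Kdr (0.594) at 5.6 and Flt1 (0.780) at 6.2. Mfsd2a (0.569) was at 55.6, near the middle of its peers. The median percentile of the 36 genes was 24.8, and 22 were below percentile 50.

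**Figure D2:**
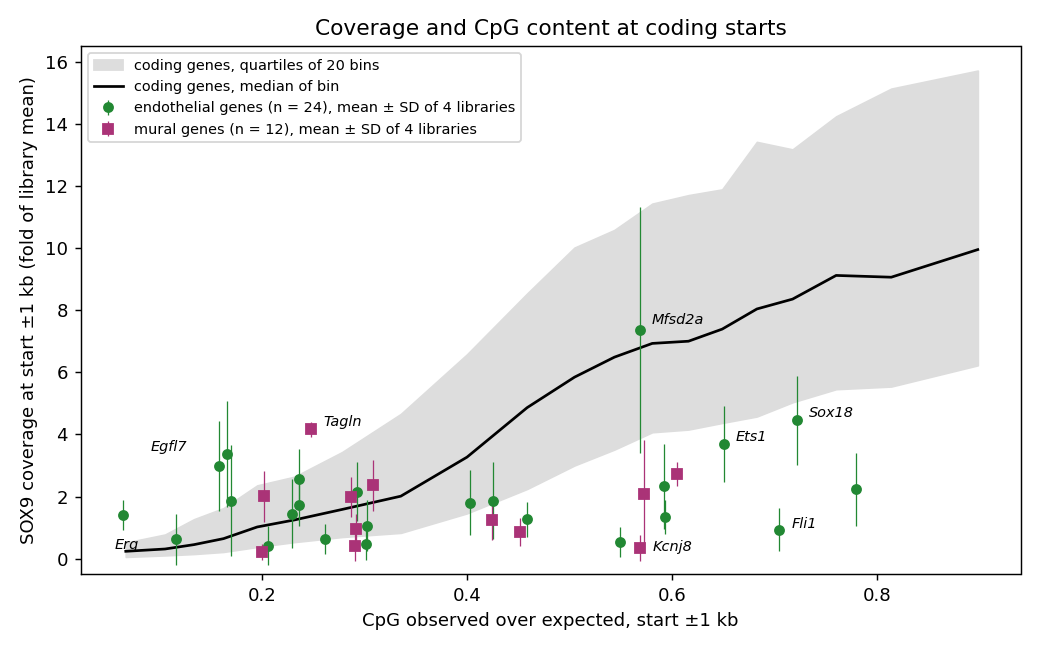
Mean SOX9 coverage in the start window (vertical axis, fold of the library mean) against the CpG ratio of the window (horizontal axis); points are the 24 endothelial and 12 mural genes with the SD over 4 libraries, the line the median coding gene in 20 bins and the band its quartiles. Kcnj8 and Fli1 lie under the band, Egfl7 and Tagln above it, and Mfsd2a close to the line.

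Over whole genes the picture differed by role. The median coverage in the gene window was 0.899 for the 36 genes, 0.871 for the endothelial and 1.77 for the mural genes, against 1.56 for coding genes. The endothelial genes were also longer, with a median of 44.3 kb against 26.9 kb for mural genes and 17.4 kb for coding genes. Set against the 500 coding genes of nearest length, the 36 genes had a median percentile of 31.5, and 22 were below percentile 50. These were 17 of the 24 endothelial and 5 of the 12 mural genes. Coverage of at least 3 in all 4 libraries was seen at 4 genes (Mfsd2a, Egfl7, Nos3 and Tagln), against 17.9% of coding genes.

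Nos3 reached 4.30, 5.67, 4.45 and 4.14 in the gene window, at percentile 86.8 among genes of like length, with the conditions overlapping. Mfsd2a had 4.05, 3.63, 6.76 and 4.30 (percentile 81.0), Egfl7 4.10, 4.64, 4.03 and 3.84 (79.6), Eng 3.02, 3.06, 3.22 and 2.77 (79.6) and Tagln 4.26, 5.12, 4.37 and 3.16 (77.2). Eng encodes endoglin, a coreceptor for ligands of the transforming growth factor family. At the low end, Slco1a4 (percentile 5.8), Emcn (6.0), Abcb1a (7.4) and Abcc9 (7.8) were below the library mean in all 4 libraries. Emcn encodes a surface sialomucin of veins and capillaries, and Abcc9 the partner subunit of the Kcnj8 channel. Another coding gene starts inside the gene window of 4 genes (Pecam1, Esam, Vwf and Cnn1). With the 1 kb around such starts masked, an alternative chosen after seeing the data, the median of the 36 genes stayed at 0.899.

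Coverage away from the starts was read in 1-kb tiles. A tile over 1 kb from the gene's start with coverage of at least 5 in all 4 libraries was found in the gene windows of 7 of the 36 genes, against 28.0% of coding genes. The number was 4 after thinning to the smallest SOX9 library, for which no share of coding genes is given here. The 7 genes were Mfsd2a, Anpep, Nos3, Notch3, Tagln, Eng and Egfl7. The highest by its lowest library was in an intron of Mfsd2a, 5.69 kb downstream of the start (chr4:122955001-122956000, GRCm38). It had 24.5, 23.4, 28.1 and 20.4, more than the start window in each library, and the conditions overlapped. In Nos3 a tile near the end of the gene (chr5:24383001-24384000) had 10.4, 32.7, 13.0 and 17.7. Its centre is in an intron, but 149 of the 200 bases at its summit are in exons of Nos3. Downstream of Notch3, 49.4 kb from the start and outside the gene (chr17:32117001-32118000), the values were 13.5, 17.4, 9.48 and 8.47.

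Not all of these tiles hold unique sequence. The intronic tile of Anpep, a surface peptidase of pericytes (chr7:79829001-79830000), had 48.0, 16.4, 82.0 and 13.8, with both M libraries above both F libraries. The 200 bases at its summit are a tandem repeat, with 98.6% identical bases after a shift of 54 bp. The tile upstream of Tagln (chr9:45940001-45941000, 4.44 kb from the start) had 8.72, 13.9, 5.44 and 8.18, and its summit also holds a repeat, with 72.0% identical bases after a shift of 57 bp. This tile is centred 907 bp from a start of Sidt2. The highest distal tile of Egfl7 is centred 66 bp from another start of Egfl7 itself. When tiles within 1 kb of any coding start were left out, an alternative chosen after seeing the data, 5 of the 36 genes and 20.8% of coding genes had such a tile.

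**Figure D3:**
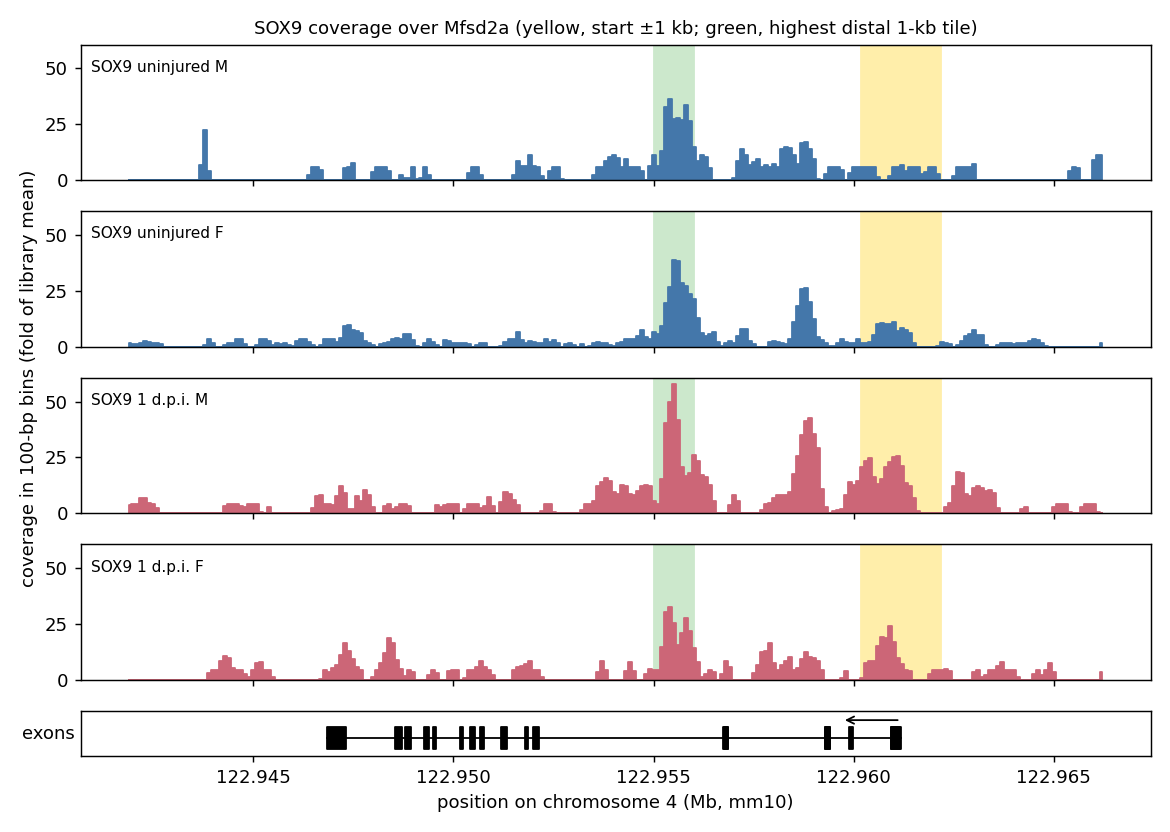
SOX9 coverage over Mfsd2a and 5 kb to each side (vertical axes, fold of the library mean in 100-bp bins, same scale in all 4 rows; horizontal axis, position on chromosome 4, GRCm38/mm10), with exons below and the arrow giving the direction of transcription. The intronic tile in green has 24.5, 23.4, 28.1 and 20.4, and the start window in yellow 4.14, 4.65, 12.8 and 7.92.

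The injury contrast was tested with limma on log2(coverage + 0.5) over all coding genes, so log2 changes here are on that scale and understate the change of low genes. At starts, 31 of the 36 genes passed the filter of a mean of at least 0.5, and none passed the test in either direction (0 also at an unadjusted p under 0.05). Over all 18138 genes tested 2 did, 0.011% of them, both higher at 1 d.p.i. (Gm11361 and Ftl1-ps1, named after their values were seen). At an unadjusted p under 0.05 there were 162 higher and 162 lower, but 30 and 582 without uninjured M and 1439 and 168 without uninjured F. The median log2 change was 0.07 over the 31 genes and -0.06 over all genes tested. Neither sign was stable, with -0.13 and -0.47 without uninjured M and 0.13 and 0.30 without uninjured F. With 2 libraries per condition these tests compare the spread of 4 samples, and a p that misses the threshold does not show equal coverage. In simulated data with 200 changed genes, the test found 1% of 2-fold and 35.5% of 4-fold changes at starts. Over gene windows it found 0% of 2-fold and 98% of 4-fold changes, the latter with 12 false calls.

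Both 1 d.p.i. libraries were above both uninjured ones at the starts of 7 of the 36 genes (19.4%), against 8.16% of coding genes. Mfsd2a had 4.40 ± 0.359 uninjured and 10.3 ± 3.42 at 1 d.p.i. (mean ± SD, n = 2 each), a log2 change of 1.11 ± 0.67 (SE) with a limma adjusted p of 1.00. Flt1 had 1.32 ± 0.757 and 3.14 ± 0.409 (log2 change 1.06 ± 0.74, but 0.18 after thinning to the smallest SOX9 library and 0.63 without uninjured M). Esam had 1.01 ± 0.454 and 2.61 ± 0.784 (1.05 ± 0.78, but 0.34 with 2 kb to each side). Both had an adjusted p of 1.00 in limma. Robo4, Ly6c1, Myh11 (smooth muscle myosin) and Slco1a4 were the others, the last from 4 fragments in all. Both 1 d.p.i. libraries were below at 4 genes (11.1%), against 13.8% of coding genes. Notch3 had 3.16 ± 2.1 and 0.999 ± 0.181 (log2 change -1.16 ± 0.77, but -0.53 without uninjured M), Pecam1 2.18 ± 1.26 and 0.715 ± 0.0467 (-1.06 ± 0.82, but -0.07 with 2 kb to each side and 0.91 at the 5′ end of the gene model) and Pdgfrb 2.87 ± 0.193 and 1.86 ± 0.997 (-0.58 ± 0.73, but -0.13 without 1 d.p.i. F), each with a limma adjusted p of 1.00. Of the 7 genes above, 6 are endothelial, and of the 4 below, 3 are mural. These counts carry no test. In the other lists they were 3 above and 3 below of 15 astrocyte genes, 6 and 1 of 16 microglia and macrophage genes, 2 and 0 of 8 meningeal fibroblast genes, and 2 and 12 of 50 genes of related pathways.

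In the gene windows, 29 of the 36 genes passed the filter and none passed the limma test, with 1 higher (Ly6c1) and 0 lower at an unadjusted p under 0.05. Over 17655 genes 1 passed, Gm11361, 0.00566% of those tested, with 419 higher and 296 lower at an unadjusted p under 0.05 (468 and 1676 without uninjured M, 1220 and 456 without uninjured F). Scaling by a trimmed mean of log ratios gave 6 higher and 2 lower in place of 1 and 0. Both 1 d.p.i. libraries were above both uninjured ones at 5 of the 36 genes (13.9%), against 12.9% of coding genes, and below at 4 (11.1%), against 13.3%, so these shares were near the background. Ly6c1 had 0.310, 0.359, 0.966 and 0.615, a log2 change of 0.62 ± 0.26 from 38 fragments in all (limma adjusted p of 1.00). It passed the filter only through its 1 d.p.i. mean (0.790, against 0.335 uninjured), and with no filter it was again the only one of the 36 at an unadjusted p under 0.05 in limma. That number was 0 after centring, with a block for M and F, with no flank and without the start window. Under the other alternatives with all 4 SOX9 libraries it was 1 or 2. Mfsd2a had a log2 change of 0.44 ± 0.34 (0.14 without 1 d.p.i. M) and Higd1b, a pericyte marker, 0.34 ± 0.20, which turned to -0.56 over the gene with no flank. Cnn1 (calponin of smooth muscle) had 2.61, 2.71, 2.16 and 2.01 (-0.29 ± 0.21). It was followed by Notch3 (-0.21 ± 0.22, but -0.09 after thinning) and Egfl7 (-0.13 ± 0.31, but -0.05 without uninjured F and -0.01 with no flank).

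Tiles gave the same contrast at finer scale. Of 2402 tiles in the gene windows of the 36 genes, 151 tiles in 23 genes had a mean of at least 3, and none passed the limma test (2 higher and 1 lower at an unadjusted p under 0.05). Over all 172298 tiles tested, 3748 were higher and 3342 lower at an unadjusted p under 0.05. That balance turned without each library in turn except uninjured F. After adjustment 68 passed, 0.0395%, with 59 higher and 9 lower. This second balance turned without either 1 d.p.i. library and kept its direction without either uninjured one. Both 1 d.p.i. libraries were above both uninjured ones in 25 of the 151, against 15.5% of all tiles tested, and below in 20, against 16.4%. An intron of Mfsd2a next to its start (chr4:122960001-122961000) had 3.74, 6.23, 19.1 and 11.2, a log2 change of 1.51 ± 0.62. The tile at the start of Robo4 (chr9:37402001-37403000) had 1.13, 2.76, 6.44 and 6.97 (1.64 ± 0.76), and an intron of Vwf (chr6:125600001-125601000) 1.05, 2.42, 6.48 and 4.51 (1.48 ± 0.89). All 3 had an adjusted p of 0.999 in limma. On the lower side was a tile 3.44 kb upstream of Tagln (chr9:45939001-45940000) with 10.7, 8.90, 4.15 and 0.952 (-1.98 ± 0.68, limma adjusted p of 0.785). Its centre is nearer to a start of Sidt2, at 1907 bp, than to that of Tagln. Also lower were a tile upstream of Cnn1 (chr9:22096001-22097000, -1.80 ± 1.06) and a tile downstream of Notch3 (chr17:32115001-32116000, -1.24 ± 0.74). Of these 6 tiles only that of Mfsd2a had a mean of at least 3 in both conditions. The other 5 passed the filter through the condition in which they were higher, and the part of the filter in their changes was not tested.

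Genes of the same pathways outside the list had a median start coverage of 2.82, between the vascular genes (1.77) and all coding genes (3.85). Of 50 such genes 17 had coverage of at least 3 in all 4 libraries (40.6% of coding genes did), and none passed the limma test at starts or over gene windows. At an unadjusted p under 0.05, 0 were higher and 2 lower at starts, and 1 was higher and 0 lower over gene windows. The median start coverage was 3.20 for 14 vascular ligands and receptors, 2.01 for 11 endothelial regulators, 3.47 for 14 genes of barrier and Wnt signalling and 2.64 for 11 contractile and SRF genes. Vegfa, the main growth factor for endothelium and made largely by other cells, had 7.50, 8.0, 9.10 and 6.30, and Vegfb 9.54, 12.6, 10.0 and 9.58. Fzd4, the receptor for barrier-inducing Wnt and norrin signals, had 13.5, 25.2, 13.6 and 14.3, and the glucose transporter gene Slc2a1 12.6, 16.7, 16.4 and 9.54. Srf had 6.06, 22.6, 15.6 and 15.9 and its coactivator Mrtfb 7.10, 13.2, 17.2 and 12.7. Of the endothelial regulators, Klf4 had 3.15, 10.4, 12.1 and 9.42 and Ets2 4.91, 11.7, 4.30 and 9.56. The lists had unlike CpG ratios, with a median of 0.629 over the 50 genes and 0.302 over the 36.

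Marker genes of other cells in the tissue were measured in the same way. Of 15 astrocyte genes 8 had start coverage of at least 3 in all 4 libraries, against 40.6% of coding genes, with list medians of 3.38, 3.77, 3.90 and 4.57. The highest were the glycolytic enzyme gene Aldoc (20.6, 21.8, 26.5 and 18.8) and the glutamate transporter gene Slc1a2 (14.2, 13.7, 19.5 and 11.4). Summed over their start windows, the astrocyte genes gave 5.27 (4.37 to 6.30), 5.44 (4.95 to 5.97), 7.10 (6.19 to 8.11) and 5.00 (4.21 to 5.90), and each interval lay above that of the vascular genes in the same library. The values of all coding starts (4.81, 8.81, 6.71 and 5.61) were above the astrocyte interval in uninjured F and inside it in the other 3 libraries. The CpG ratios also differed, with a median of 0.468 for the astrocyte genes and 0.302 for the vascular genes. The 16 microglia and macrophage genes had medians of 0.985, 2.06, 2.35 and 2.32, and Sall1 was highest (12.4, 16.0, 14.4 and 11.8). None of 8 meningeal fibroblast genes reached 3 in all 4 libraries, with medians of 0.525, 0.389, 1.03 and 1.39; Col1a1 and Col1a2 were highest. No gene of these 3 lists passed the limma test at starts or over gene windows, and at an unadjusted p under 0.05 there were 0 at starts in all 3, and 1 higher and 1 lower over gene windows, both in the microglia and macrophage list. The part of other cell types in coverage at the vascular genes was not tested.

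Promoter sequences (250 bases before to 50 after the start) were taken from a RefSeq table on GRCm38.p6, which matched 22 of the 36 genes. Each was searched on both strands for a SOX motif (AACAAT), an AP-1 motif (TGANTCA), an ETS motif (AGGAAG) and the CArG box bound by SRF. The ETS motif was in 9 of 14 endothelial and 0 of 8 mural promoters, against 34.0% of 16515 promoters. For Abcb1a, 1 of the 9, the table gives a promoter 93.1 kb from the start measured here, so it is not that of the start window. The SOX motif was in 4 of 22 (Emcn, Tek, Slco1a4 and Cnn1), against 9.13% of all promoters. The AP-1 motif and the CArG box were in none of the 22, and in 6.95% and 1.52% of all promoters. Over all genes, starts whose promoter held the SOX motif had a median coverage of 0.700, and the rest 4.54. The other motifs also went with lower starts, with 1.16 and 4.43 for AP-1, 2.64 and 4.17 for the CArG box and 3.26 and 4.69 for ETS. These medians were not adjusted for CpG content, which start coverage followed, and its part in them was not tested. Such a motif match is a description of letters only.

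The 250 bases before the start are shown for the highest vascular start (Mfsd2a), for Flt1, whose start had more coverage in both 1 d.p.i. libraries, and for Tek and Emcn, low starts whose promoters hold the SOX motif. Capitals mark the motifs found. Each reads in the direction of transcription, from the minus strand for Mfsd2a (chr4:122961189-122961438) and Flt1 (chr5:147726012-147726261) and the plus strand for Tek (chr4:94739039-94739288) and Emcn (chr3:137340828-137341077).
Mfsd2a promoter: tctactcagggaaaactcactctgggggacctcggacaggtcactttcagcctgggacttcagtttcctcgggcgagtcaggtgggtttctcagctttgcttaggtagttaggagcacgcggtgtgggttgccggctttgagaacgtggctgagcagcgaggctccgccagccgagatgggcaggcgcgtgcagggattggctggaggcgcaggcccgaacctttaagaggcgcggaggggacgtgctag
Flt1 promoter: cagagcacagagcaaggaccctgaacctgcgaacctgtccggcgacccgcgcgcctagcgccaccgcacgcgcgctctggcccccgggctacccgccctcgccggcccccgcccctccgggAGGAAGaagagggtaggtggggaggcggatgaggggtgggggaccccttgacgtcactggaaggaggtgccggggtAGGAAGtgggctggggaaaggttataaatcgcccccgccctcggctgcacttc
Tek promoter: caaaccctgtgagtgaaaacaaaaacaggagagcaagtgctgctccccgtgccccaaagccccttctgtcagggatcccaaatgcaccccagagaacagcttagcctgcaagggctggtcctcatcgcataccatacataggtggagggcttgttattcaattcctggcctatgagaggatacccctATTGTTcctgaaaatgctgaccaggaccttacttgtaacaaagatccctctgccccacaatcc
Emcn promoter: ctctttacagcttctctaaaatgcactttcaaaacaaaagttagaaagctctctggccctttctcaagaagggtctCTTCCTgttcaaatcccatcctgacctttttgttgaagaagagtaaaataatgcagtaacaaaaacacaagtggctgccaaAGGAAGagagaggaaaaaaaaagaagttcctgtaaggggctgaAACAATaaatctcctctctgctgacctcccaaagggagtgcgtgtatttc
Mfsd2a held none of the motifs in this stretch, Flt1 held the ETS motif at 2 places, Tek held the SOX motif on the opposite strand, and Emcn held the SOX motif and the ETS motif on either strand. Start coverage of Emcn was 1.19, 0.603, 0.707 and 0.

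The summits of distal tiles were read from GRCm38, plus strand, as 200 bases around the base of highest mean coverage. They are shown for Mfsd2a (chr4:122955446-122955645, intron), where the summit reached 46.7, Notch3 (chr17:32117867-32118066, outside the gene), where it reached 23.2, and Anpep (chr7:79829115-79829314, intron), where it reached 51.4 on repeated sequence.
Mfsd2a distal tile summit: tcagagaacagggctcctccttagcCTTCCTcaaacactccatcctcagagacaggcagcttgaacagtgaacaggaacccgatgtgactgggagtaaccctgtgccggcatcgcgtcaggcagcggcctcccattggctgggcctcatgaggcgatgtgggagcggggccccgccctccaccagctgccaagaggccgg
Notch3 distal tile summit: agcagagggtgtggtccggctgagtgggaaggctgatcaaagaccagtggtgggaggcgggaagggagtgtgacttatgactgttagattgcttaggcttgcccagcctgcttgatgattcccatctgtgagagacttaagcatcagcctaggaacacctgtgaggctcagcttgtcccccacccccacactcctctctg
Anpep distal tile summit: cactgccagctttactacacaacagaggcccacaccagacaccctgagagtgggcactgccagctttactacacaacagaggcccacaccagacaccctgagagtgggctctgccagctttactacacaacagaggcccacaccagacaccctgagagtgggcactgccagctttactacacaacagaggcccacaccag
None of the 3 held the SOX motif, the AP-1 motif or the CArG box, and Mfsd2a held the ETS motif on the opposite strand.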

How the data were processed

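SOX9 CUT&Tag libraries of mouse spinal cord, 2 per condition, and their 4 secondary-only controls were read from the deposited coverage signal, 1 value per stretch and library. Its values behave as whole-number coverage not scaled for depth, which the sources do not state and on which the fragment counts and Poisson intervals rest. Per the labels, the authors mapped reads to mm10 with Bowtie2 (2.5.4) and used Picard (3.4.0) and SEACR (1.3); the step that wrote the signal is not given in the sources used here. Within libraries 0 stretches overlapped and 0 of 14068322 abutting pairs had equal values, as in a coverage track, so limma was used and not a test for counts. Groups came from the sample titles, which give only the letters M and F, read here as male and female. The paper pooled animals in its sequencing experiments and does not give the number per library here. The p-values measure the spread between these samples.

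Mean coverage in each window was divided by the library's mean over chromosomes 1 to 19, X and Y. Each rise of the coverage was taken as the start of a fragment. Genes were the 21829 protein-coding genes of GENCODE M21 (GRCm38), with the start of the APPRIS principal transcript where given and otherwise of the longest coding transcript. Tests used limma (3.58.1; R 4.3.3) on log2(coverage + 0.5) with a mean-variance trend and Benjamini-Hochberg adjustment at 0.05 over all features with a mean of at least 0.5 (1-kb tiles, 3), after testing on simulated data. The controls entered no main test. Named were the 5 highest and 2 lowest endothelial and 3 highest and 2 lowest mural starts, the 3 largest non-overlapping changes each way for starts and gene windows, the 5 transcription factors, 5 distal tiles and up to 3 changed tiles each way, and the 2 highest starts of each other list; members named beyond these were chosen after their values were seen. The genes, lists and tests were chosen with earlier results of these data known. Alternatives were another scaling, pseudocounts, filters, window sizes, thinning, a sex block, all 8 libraries, no trend and leaving out each library. Python 3.11.15 (numpy 2.4.6, pandas 2.3.3, scipy 1.17.1, pysam 0.24.0) computed all else.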

Additional observations from a re-analysis of the deposited data

Results flagged for a closer look

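Over all coding genes, the median start change at 1 d.p.i. was upward in M and downward in F, each with 1 library per condition, so the differences were not tested. Over all coding genes tested, the median log2 change at starts was 0.42 in M and -0.54 in F (M minus F 0.96), and over gene windows 0.10 and -0.16 (0.26). Over the vascular genes tested it was 0.60 and -0.03 at starts (0.62), and -0.05 and 0.13 over gene windows (-0.18). The fragments of the uninjured libraries differed in the same split, 1891276 in M and 7216730 in F, and the part of depth was not tested. All coding starts together gave 4.81 in uninjured M, 8.81 in uninjured F, 6.71 in 1 d.p.i. M and 5.61 in 1 d.p.i. F. Both 1 d.p.i. libraries thus lay between the uninjured ones.

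At single starts the change in M minus that in F, on the log2 scale, was 2.55 for Fli1, 2.33 for Sox17, 2.32 for Tek, 2.21 for Egfl7, 1.83 for Eng, 1.56 for Nos3, 1.48 for Cdh5, 1.36 for Ets1, 1.20 for Abcc9, 1.1 for Kdr and 0.84 for Sox18. For these 11 genes M was higher and F lower at 1 d.p.i. The difference was -4.69 for Vwf, -2.48 for Tie1, -2.30 for Ptprb, -1.97 for Cldn5, -1.72 for Anpep, -1.46 for Higd1b, -1.11 for Cnn1 and -0.17 for Tagln, 8 genes where M was lower and F higher. Some of these rest on few fragments. In the order used for each gene above, Fli1 had 0, 7, 3 and 2 fragments and Vwf 3, 4, 0 and 6. Sox17 had 1, 4, 1 and 0, and Tek 1, 5, 2 and 0. None of the differences was tested.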

How the results depend on the processing

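No vascular gene or tile passed the limma test under any alternative run. Over all coding starts 2 passed; the number was 0 after trimmed-mean scaling, with a pseudocount of 2, without the filter, with all 8 libraries, after thinning, with 500 bp to each side and without any 1 library, 1 at the 5′ end of the gene model, and 11 after centring. For gene windows 1 passed, against 8 after trimmed-mean scaling, 0 after centring, with 8 libraries, without the trend, after thinning, with no flank, without the start window or with other starts masked, and from 0 (without either uninjured library) to 18 (without 1 d.p.i. M; 5 without 1 d.p.i. F). For tiles 68 passed, against 24 after trimmed-mean scaling, 33 with the filter doubled, 0 with 8 libraries or without the trend, 18 after thinning, and from 7 (without 1 d.p.i. F) to 677 (without uninjured F). Where a condition is left with 1 library, it is assumed to vary like the others. The cause was not tested.

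The 2 conditions used different mice, so the letters pair nothing. With a replicate block, 1 start, 28 gene windows and 25 tiles passed, 0 of them vascular. Over genes, the M minus F differences of the 2 conditions had a correlation of -0.09 at starts and -0.26 over gene windows.

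The median start coverage of the 36 genes (1.77) was 1.37 after thinning, 1.63 with 500 bp and 1.35 with 2 kb to each side, 1.39 at the 5′ end of the gene model and from 1.47 (without uninjured M) to 1.75 without each library in turn. That over gene windows (0.899) was 1.05 with no flank. The count of starts at 3 or more (2) was 5 at a threshold of 2, 0 at 5, and from 2 to 4 without each library. The count of genes with a distal tile (7) was 4 after thinning, 12 at a threshold of 3, 3 at 10, and from 7 to 10 without each library. Of the named gene changes, that of Pecam1 turned to 0.91 at the 5′ end of the gene model, and that of Higd1b to -0.56 over the gene with no flank. Otherwise signs held, and the changes nearest 0 were 0.77 (Mfsd2a) and 0.18 (Flt1) at starts after thinning, 0.34 (Esam) and -0.07 (Pecam1) with 2 kb to each side, -0.53 (Notch3) without uninjured M and -0.13 (Pdgfrb) without 1 d.p.i. F; over gene windows, 0.25 (Ly6c1) with a pseudocount of 2, 0.14 (Mfsd2a) without 1 d.p.i. M, 0.17 (Higd1b) without 1 d.p.i. F, -0.19 (Cnn1) with a pseudocount of 2, -0.09 (Notch3) after thinning and -0.01 (Egfl7) with no flank. Ly6c1 missed the filter with no flank and without the start window, and single tiles were not followed through the alternatives. In the shallowest library 1 fragment is worth 0.720 in a start window, which limits every single start.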
